A study of Mus musculus with 6 samples.

Results

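The genes described here are 38 genes of the urea cycle and of amino acid breakdown, chosen by symbol from a fixed list and all found among the 28601 genes of the deposited liver table. The urea cycle of the liver turns ammonia, which is toxic, into urea, while the breakdown of histidine, tyrosine, tryptophan, lysine, proline and the branched-chain amino acids hands over their nitrogen and leaves carbon for glucose, ketone bodies or the citric acid cycle. Most of these enzymes are made by hepatocytes, urea cycle enzymes mainly in those near the portal vein. Some, among them Cps1 and Otc, work inside mitochondria, so carriers link them to the cytosolic steps.

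RNA came from livers of 6 male mice on CDAHFD, a high-fat diet without choline in which L-amino acids replace protein and which causes fatty, inflamed and fibrotic liver. The wild-type group (WT) had 3 mice, and the other 3 had the PRDX1 Cys52Ser substitution, which replaces the peroxide-reacting cysteine of peroxiredoxin 1, so the single comparison asks what the substitution does to liver RNA on this diet. All 6 mice ate the diet, begun at 8 weeks of age, and no group on a normal diet was analysed here. Titles and design text give 8 weeks of feeding, but the treatment field gives 8, 9 and 10 weeks for WT replicates 1, 2 and 3 and 11, 12 and 13 weeks for the Cys52Ser replicates. If that field is literal, genotype and time on the diet cannot be told apart. The strain, and whether the substitution was in 1 or in both copies of the gene, are not stated by the labels.

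Total counts per library were 53318196 to 73900923. Levels are TMM-scaled CPM (counts over library size, corrected by TMM for the libraries' composition). The gene Prdx1 itself stood at 920.3 ± 57.2 CPM over WT livers and 779.6 ± 105 CPM over Cys52Ser livers (SD, n = 3 each), with a log2 fold change of -0.24 (edgeR adjusted p = 0.421) and all Cys52Ser livers below all WT livers. As deposited FPKM, which is not TMM-scaled, its level averaged 301.4 ± 5.78 for WT against 199.9 ± 17.2 for Cys52Ser. Gene counts cannot show a substitution of 1 residue. Hepatocyte RNA was abundant in every library and more so in Cys52Ser: 12 hepatocyte markers such as Alb took 6.48% to 9.08% of counts in WT and 11.9% to 12.5% in Cys52Ser. In TMM-scaled CPM, 8 stellate cell and fibroblast markers summed to 1527 to 2657 CPM in WT and 929.8 to 1061 CPM in Cys52Ser, and 8 macrophage markers to 2343 to 3532 CPM in WT and 1253 to 1760 CPM in Cys52Ser. Within the macrophage list Gpnmb, Trem2 and Lyz2 were called lower and Clec4f, a marker of resident Kupffer cells, higher. Of 5 endothelial markers, which summed to 190.2 to 231 CPM in WT and 246 to 309 CPM in Cys52Ser, Kdr and Cdh5 were called higher. Of 6 cholangiocyte markers, which summed to 63.0 to 153 CPM in WT and 29.2 to 96.4 CPM in Cys52Ser, Cldn7 and Pkhd1 were called lower. Of these 6 markers, 5 had a fitted change below 0 and 1 above, and 3 had overlapping groups. Of the 8 stellate cell and fibroblast markers, 3 were called lower, 7 had a fitted change below 0 and 1 above. WT replicate 1 had the lowest hepatocyte sum and the highest stellate and macrophage sums. Genes of kidney proximal tubule, where several of the 38 genes are also active, summed to no more than 0.552 CPM in any library. The 4 genes of exocrine pancreas summed to 19.1, 25.0 and 41.3 CPM in WT replicates 1, 2 and 3. In Cys52Ser replicates 1, 2 and 3 they summed to 40.6, 216 and 10.9 CPM, highest in replicate 2. In whole liver, fewer cells of a type and less RNA per cell cannot be told apart.

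Of the 38 genes, 14 rose in Cys52Ser and none fell (edgeR quasi-likelihood test, Benjamini-Hochberg adjusted p under 0.05), against 2.52% of 18648 tested genes called higher, 2.46% called lower and 4.98% called either way. No gene was lower at an unadjusted p under 0.05 either and 30 were higher, a level at which the share over all genes was not counted. DESeq2 called 28 of the 38 higher and 0 lower, against 1294 higher and 1181 lower of all 28601 genes. The fitted fold change was above 0 for 37 of 38 genes, for 36 with library totals as the scale and for 26 with hepatocyte markers as the scale. All 3 Cys52Ser livers lay above all 3 WT livers for 30 genes, as they did for 14.4% of tested genes, and the groups overlapped for the other 8. The median log2 fold change was 0.82, that of all tested genes -0.00 and that of the 12 hepatocyte markers 0.66. Abundant genes as a class were also higher: of 1511 tested genes with a mean of 100 CPM or more, 9.93% were called higher and 1.79% lower, 40.2% had all Cys52Ser livers above all WT livers, and the median was 0.27. Of the 38 genes, 29 belong to that class.

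None of the 12 hepatocyte markers was called in either direction by edgeR, 9 were higher at an unadjusted p under 0.05, DESeq2 called 9 higher, and 10 had groups that did not overlap. Scaling the libraries to these markers asks whether a gene moved relative to hepatocyte RNA. On that scale the all-gene median of log2 fold changes shifts from -0.00 to -0.67 and the split of calls from 469 higher and 459 lower to 123 higher and 5975 lower. On it, 7 of the 38 genes were called higher: Afmid at a log2 fold change of 1.12, Asl at 0.89, Cps1 at 0.75, Hal at 0.69, Tdo2 at 0.58, Hpd at 0.56 and Aass at 0.49 (edgeR adjusted p from 0.0126 to 0.0270). Amdhd1 was called lower on that scale (log2 fold change -0.75, edgeR adjusted p = 0.0149), and the median of the 38 genes was 0.16. With library totals as the scale, the all-gene median was -0.35, calls were 293 higher and 2724 lower, and of the 38 genes 16 were called higher and Amdhd1 lower (-0.43, edgeR adjusted p = 0.0394). The part of the hepatocyte, stellate, macrophage, endothelial and cholangiocyte markers in the changes was not tested.

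The count of 14 also depended on single libraries. It was 7 without WT replicate 1 (Dbt, Afmid, Hal, Asl, Cps1, Hpd and Nags), 2 without WT replicate 2 (Dbt and Hal), 15 without WT replicate 3 (losing Cps1 and Aldh4a1 and adding Otc, Fah and Gcdh) and 10 without Cys52Ser replicate 2 (losing Cps1, Tdo2, Aldh4a1 and Kmo). Without Cys52Ser replicate 1 or Cys52Ser replicate 3 edgeR called none of the 38 genes in either direction, though 26 were higher and 0 lower at an unadjusted p under 0.05 in each fit, and only 22 and 21 of all tested genes were then called higher. Hal and Dbt were the genes called in each of the other 4 fits.

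**Figure D1:**
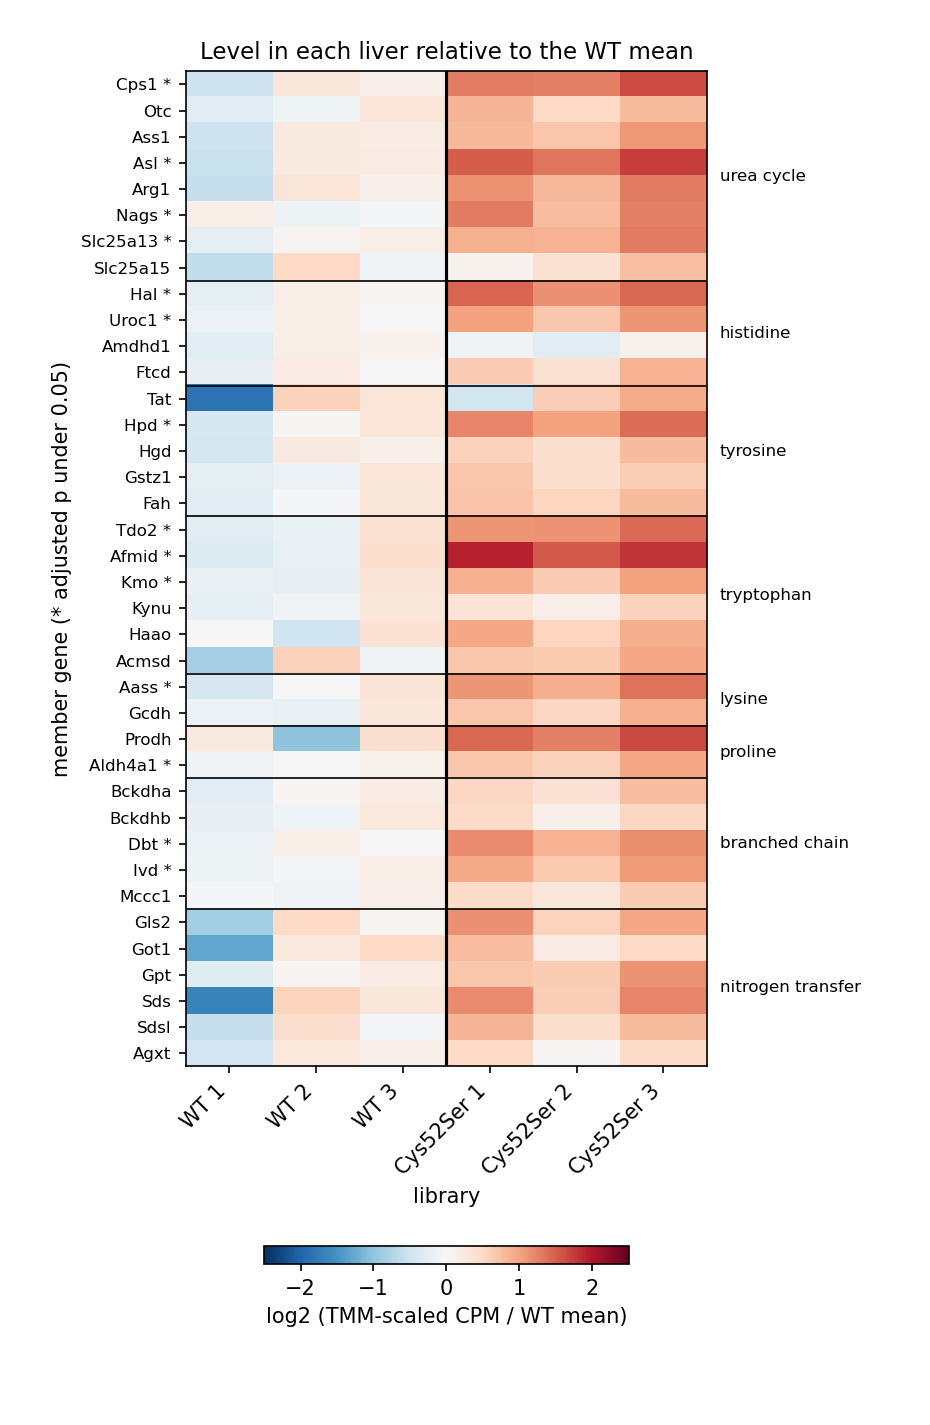
Each cell is the log2 ratio of a gene's TMM-scaled CPM in 1 liver to its mean over the 3 WT livers, with genes in rows by pathway, livers in columns and an asterisk for the 14 genes called. The Cys52Ser columns are red for nearly all genes, while Amdhd1 stays near 0 and WT replicate 1 is the bluest column, most of all for Tat, Sds and Got1.

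In the urea cycle, the first enzyme, the enzyme that makes arginine, the synthase of the cycle's activator and the aspartate carrier rose, 4 of 8 genes with a median log2 fold change of 1.06. Per-liver values here and below are TMM-scaled CPM in the order of replicates 1, 2 and 3. Cps1 (ENSMUSG00000025991, GRCm38 chromosome 1, 67123026 to 67231259), whose enzyme fixes ammonia as carbamoyl phosphate, stood at 1044, 1811 and 1623 CPM in WT and 3606, 3593 and 4629.6 CPM in Cys52Ser. Every Cys52Ser liver lay above the highest WT liver by a wide gap. Mean levels were 1493 ± 400.0 CPM over WT livers and 3943 ± 595 CPM over Cys52Ser livers (SD, n = 3 each), a rise of 2.64-fold (log2 fold change 1.40, SE 0.24, adjusted p = 0.0302). Asl (ENSMUSG00000025533, GRCm38 chromosome 5, 130011258 to 130025019), which splits argininosuccinate into arginine and fumarate, stood at 125, 214 and 213 CPM in WT and 523, 468 and 612 CPM in Cys52Ser. It rose 2.90-fold (log2 fold change 1.54, SE 0.24, adjusted p = 0.0234), with WT replicate 1 the lowest liver and no overlap. Nags (ENSMUSG00000048217, GRCm38 chromosome 11, 102145513 to 102149477) makes N-acetylglutamate, without which Cps1 protein is inactive. Its level was 49.5, 40.8 and 42.8 CPM in WT and 109, 76.1 and 107 CPM in Cys52Ser, a rise of 2.19-fold (log2 fold change 1.13, SE 0.16, adjusted p = 0.0207), and here WT replicate 1 was the highest WT liver and still below all Cys52Ser livers. Slc25a13 (ENSMUSG00000015112, GRCm38 chromosome 6, 6041218 to 6217173) encodes citrin, the carrier that brings mitochondrial aspartate to the cytosol for argininosuccinate synthesis. It was measured at 124, 155 and 165 CPM in WT and 275, 272 and 364 CPM in Cys52Ser and rose 2.05-fold (log2 fold change 1.04, SE 0.17, adjusted p = 0.0267), again without overlap.

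The other 4 urea cycle genes did not pass the threshold in edgeR with TMM scaling and all libraries. Arg1, which releases urea from arginine, was at 355, 649 and 580.4 CPM in WT and 1152, 927 and 1296 CPM in Cys52Ser (log2 fold change 1.09, SE 0.25, adjusted p = 0.0553). Ass1, which joins citrulline and aspartate, was at 825, 1385 and 1339 CPM in WT and 2087, 1923 and 2514 CPM in Cys52Ser (log2 fold change 0.88, SE 0.23, adjusted p = 0.0787). Otc, an X-linked gene whose enzyme makes citrulline, was at 189, 212 and 282 CPM in WT and 409, 319 and 395 CPM in Cys52Ser (log2 fold change 0.72, SE 0.19, adjusted p = 0.0742). For these 3 genes the groups did not overlap. DESeq2 called all 3 higher, with adjusted p = 4.12e-05 for Arg1, 0.00055 for Ass1 and 0.00162 for Otc. Of 19 alternative fits, 7 called Arg1, that of DESeq2 included. Slc25a15, the mitochondrial ornithine carrier, was at 158, 343 and 230.2 CPM in WT and 258, 319 and 409.6 CPM in Cys52Ser (log2 fold change 0.43, SE 0.30, adjusted p = 0.462). Its groups overlapped, because WT replicate 2 exceeded Cys52Ser replicates 1 and 2.

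In histidine breakdown 2 of 4 genes rose, those of the first steps. Hal (ENSMUSG00000020017, GRCm38 chromosome 10, 93488768 to 93519304), the histidase that removes ammonia from histidine, stood at 68.2, 90.1 and 83.5 CPM in WT and 221, 179 and 219 CPM in Cys52Ser and rose 2.56-fold (log2 fold change 1.36, SE 0.15, adjusted p = 0.0165). Uroc1 (ENSMUSG00000034456, GRCm38 chromosome 6, 90333284 to 90364551), the urocanase of the next step, stood at 142, 171 and 154 CPM in WT and 314, 249 and 334 CPM in Cys52Ser and rose 1.92-fold (log2 fold change 0.94, SE 0.15, adjusted p = 0.0246). Both genes had Cys52Ser livers well above WT livers and little spread within WT. Amdhd1 (ENSMUSG00000015890, GRCm38 chromosome 10, 93523338 to 93540033), the imidazolonepropionase that follows, was at 76.8, 101 and 97.3 CPM in WT and 86.2, 75.3 and 99.3 CPM in Cys52Ser. The groups overlapped throughout (log2 fold change -0.08, SE 0.15, adjusted p = 0.819), and it was the 1 gene of the 38 with a fitted change below 0. Ftcd, which passes the formimino group of histidine to folate, was at 174, 231 and 199 CPM in WT and 314, 263 and 368 CPM in Cys52Ser (log2 fold change 0.65, SE 0.17, adjusted p = 0.0773) and its groups did not overlap. Hal and Amdhd1 are neighbours on chromosome 10, 4033 bases apart and transcribed toward each other.

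The promoters of this neighbouring pair, of which Hal rose and Amdhd1 did not, are shown with that of Aass, a called gene of lysine breakdown. Each runs from 250 bases before to 50 bases after the start in the gene's own direction (RefSeq, GRCm38.p6), and capitals mark matches to the motifs searched.
Hal (chr10:93488518-93488817, plus strand): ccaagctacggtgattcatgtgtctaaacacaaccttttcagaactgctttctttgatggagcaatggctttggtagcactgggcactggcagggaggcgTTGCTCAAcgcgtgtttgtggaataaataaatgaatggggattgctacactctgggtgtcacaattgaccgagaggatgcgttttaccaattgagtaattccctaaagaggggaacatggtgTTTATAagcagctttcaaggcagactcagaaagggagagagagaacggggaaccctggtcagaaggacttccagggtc
Amdhd1 (chr10:93539984-93540283, minus strand): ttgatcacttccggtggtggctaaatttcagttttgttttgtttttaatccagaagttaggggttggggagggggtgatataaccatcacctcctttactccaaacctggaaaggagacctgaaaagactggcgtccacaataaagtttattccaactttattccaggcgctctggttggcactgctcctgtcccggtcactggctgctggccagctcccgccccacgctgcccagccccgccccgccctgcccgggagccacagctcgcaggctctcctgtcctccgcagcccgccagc
Aass (chr6:23132937-23133236, minus strand): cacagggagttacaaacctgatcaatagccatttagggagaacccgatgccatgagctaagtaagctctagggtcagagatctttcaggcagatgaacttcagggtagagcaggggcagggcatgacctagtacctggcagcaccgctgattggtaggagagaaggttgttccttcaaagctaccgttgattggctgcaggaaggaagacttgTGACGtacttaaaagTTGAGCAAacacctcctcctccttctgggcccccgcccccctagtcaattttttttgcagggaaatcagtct
Motifs were searched as letters on both strands: TATAAA (the letters of a promoter box that binds TBP), TTGCNNAA (C/EBP type, N being any base), CAAAGTCCA (HNF4A type), TGACG (part of a cAMP response element) and AGAACA (part of a glucocorticoid response element). In the Hal promoter TTTATA, which is TATAAA on the other strand, lies at -28 to -23 and TTGCTCAA, a TTGCNNAA match, at -150 to -143. The Aass promoter holds TGACG at -37 to -33 and TTGAGCAA, a TTGCNNAA match on the other strand, at -22 to -15, and none of these letters was found in the Amdhd1 window. Of the 38 genes, 29 had 32 promoters in the table. TATAAA was in 4 of these 32 (12.5%) and in 13.6% of all 32851 promoters, TTGCNNAA in 4 (12.5%) and in 10.8%, and CAAAGTCCA in 0 and in 0.5%. TGACG was in 6 (18.8%) and in 20.8% of all promoters, and AGAACA in 4 (12.5%) and in 19.0%. No difference between these shares was tested, and a match is a description of letters, not a site of binding.

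Of the 5 tyrosine genes, 1 rose and the others did not pass the threshold. Hpd (ENSMUSG00000029445, GRCm38 chromosome 5, 123171807 to 123182727), which turns 4-hydroxyphenylpyruvate into homogentisate, stood at 498, 669 and 806 CPM in WT and 1528, 1318 and 1723 CPM in Cys52Ser and rose 2.32-fold (log2 fold change 1.21, SE 0.21, adjusted p = 0.0309). The 3 steps after it had smaller changes that did not pass the threshold, though their groups did not overlap: Hgd with a log2 fold change of 0.60, SE 0.20, adjusted p = 0.136, Gstz1 with a log2 fold change of 0.58, SE 0.18, adjusted p = 0.114 and Fah, the last enzyme, with a log2 fold change of 0.69, SE 0.17, adjusted p = 0.0686. Tat, the aminotransferase that starts the pathway and a classic target of glucocorticoids, was the most variable of the 38 genes. It stood at 423, 2277 and 1878 CPM in WT and 1115, 2335 and 2900.1 CPM in Cys52Ser (log2 fold change 0.47, SE 0.63, adjusted p = 0.725). WT replicate 1 lay far below all other livers, Cys52Ser replicate 1 was the next lowest, and WT replicates 2 and 3 lay among the Cys52Ser livers. Hpd lies wholly within the span of Psmd9 on the other strand, and since no source says whether counting used strand, its level is uncertain. Psmd9 held 2315 to 2787 counts in WT and 2347 to 3727 in Cys52Ser libraries. For Hpd these were 39339 to 46533 and 71592 to 99875.

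For tryptophan, 3 of 6 genes of the kynurenine route rose, all of them early steps. Tdo2 (ENSMUSG00000028011, GRCm38 chromosome 3, 81957090 to 81976202), the dioxygenase that opens the indole ring, stood at 663, 715 and 1030.3 CPM in WT and 1727, 1739 and 2153 CPM in Cys52Ser and rose 2.33-fold (log2 fold change 1.22, SE 0.21, adjusted p = 0.0302). Afmid (ENSMUSG00000017718, GRCm38 chromosome 11, 117825924 to 117839908), the formamidase that frees kynurenine, stood at 15.7, 17.5 and 26.4 CPM in WT and 75.8, 57.6 and 68.5 CPM in Cys52Ser. Its rise of 3.39-fold was the largest fitted change of the 38 genes (log2 fold change 1.76, SE 0.21, adjusted p = 0.0169), with every Cys52Ser liver above the highest WT liver. Kmo (ENSMUSG00000039783, GRCm38 chromosome 1, 175620381 to 175660853), which hydroxylates kynurenine, stood at 148, 143 and 207 CPM in WT and 307, 259 and 332 CPM in Cys52Ser and rose 1.80-fold (log2 fold change 0.85, SE 0.18, adjusted p = 0.0465). Further along, Kynu had overlapping groups (log2 fold change 0.38, SE 0.17, adjusted p = 0.244), while those of Haao (log2 fold change 0.82, SE 0.23, adjusted p = 0.0911) and Acmsd (log2 fold change 0.78, SE 0.33, adjusted p = 0.223) lay apart without passing the threshold. Acmsd, which steers the route away from NAD synthesis, was low throughout, at 9.33, 24.7 and 15.4 CPM in WT and 26.1, 26.1 and 32.4 CPM in Cys52Ser. Gm20708, a same-strand gene model, shares 13981 bases of the Afmid span, from 117825924 to 117839904. The first 169 bases of Afmid also overlap Tk1, a protein-coding gene on the other strand. Kmo shares 5255 bases with Fh1 on the other strand. The split of reads between all these genes is uncertain. Gm20708 itself held 176 to 225 counts in WT and 535 to 1249 in Cys52Ser libraries, and Tk1 670 to 752 and 1424 to 2103. Fh1 held 7360 to 12605 counts in WT and 12418 to 16024 in Cys52Ser libraries, near the 8725 to 11917 and 14067 to 20064 of Kmo.

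Lysine and proline breakdown each had 1 of 2 genes called. Aass (ENSMUSG00000029695, GRCm38 chromosome 6, 23072173 to 23132986), the enzyme of the first steps from lysine through saccharopine, stood at 120.1, 159 and 200.4 CPM in WT and 342, 302 and 409 CPM in Cys52Ser and rose 2.20-fold (log2 fold change 1.14, SE 0.21, adjusted p = 0.0353). Gcdh, which oxidises glutaryl-CoA further down, had a log2 fold change of 0.71, SE 0.17, adjusted p = 0.0641 and groups that did not overlap. Aldh4a1 (ENSMUSG00000028737, GRCm38 chromosome 4, 139622866 to 139649690), which makes glutamate in the last step from proline, stood at 295, 309.6 and 333 CPM in WT and 496, 467 and 609 CPM in Cys52Ser and rose 1.68-fold (log2 fold change 0.75, SE 0.15, adjusted p = 0.0401). A same-strand gene model over its span, Gm21969, held 0 to 17 counts per library. Prodh, the first enzyme from proline, was at 115, 47.9 and 127 CPM in WT and 261, 232 and 302 CPM in Cys52Ser. Its fitted change exceeded that of Aldh4a1 but with a large error (log2 fold change 1.46, SE 0.35, adjusted p = 0.0641), as WT replicate 2 lay far below the other WT livers. Prodh overlaps Dgcr6 on the other strand and is uncertain for that reason too.

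Among 5 branched-chain genes, Dbt and Ivd rose. Dbt (ENSMUSG00000000340, GRCm38 chromosome 3, 116513070 to 116549981), the acyltransferase core of the branched-chain ketoacid dehydrogenase, stood at 36.5, 44.8 and 40.0 CPM in WT and 91.9, 73.7 and 89.9 CPM in Cys52Ser and rose 2.11-fold (log2 fold change 1.08, SE 0.13, adjusted p = 0.0168). Ivd (ENSMUSG00000027332, GRCm38 chromosome 2, 118861954 to 118882909), which acts on isovaleryl-CoA from leucine, stood at 109.6, 117 and 135 CPM in WT and 233, 189 and 251 CPM in Cys52Ser and rose 1.86-fold (log2 fold change 0.90, SE 0.15, adjusted p = 0.0263). In both the lowest Cys52Ser liver was replicate 2, well above WT. The other subunits of the dehydrogenase had smaller changes, not called: Bckdha was at 135, 168 and 184 CPM in WT and 232, 207 and 276 CPM in Cys52Ser (log2 fold change 0.55, SE 0.17, adjusted p = 0.102), with groups apart, and Bckdhb had overlapping groups (log2 fold change 0.38, SE 0.16, adjusted p = 0.220). Mccc1, a subunit of the carboxylase that acts after Ivd, had a log2 fold change of 0.46, SE 0.12, adjusted p = 0.0766 and groups that did not overlap.

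None of the 6 genes of glutamine, transaminase, serine and glyoxylate reactions was called in either direction by edgeR, 3 were higher and 0 lower at an unadjusted p under 0.05, and DESeq2 called 2 higher. Gls2, the liver glutaminase that releases ammonia for the urea cycle, was at 94.6, 241 and 175 CPM in WT and 376, 252 and 333 CPM in Cys52Ser (log2 fold change 0.91, SE 0.34, adjusted p = 0.167). Sds, the serine dehydratase, was at 33.8, 158 and 132 CPM in WT and 243, 166 and 251 CPM in Cys52Ser (log2 fold change 1.03, SE 0.53, adjusted p = 0.319). In both genes WT replicate 1 was far below the other livers while WT replicate 2 came close to Cys52Ser replicate 2, so the groups were apart only narrowly. Gpt, alanine aminotransferase, was the closest of the 6 to the threshold, at 164, 207 and 233 CPM in WT and 324, 312 and 438 CPM in Cys52Ser (log2 fold change 0.83, SE 0.19, adjusted p = 0.0559), and its groups were clearly apart. Agxt, which detoxifies glyoxylate, was at 79.3, 133 and 121 CPM in WT and 157, 113 and 155 CPM in Cys52Ser with overlapping groups (log2 fold change 0.35, SE 0.22, adjusted p = 0.410). Got1 (log2 fold change 0.51, SE 0.43, adjusted p = 0.557) and Sdsl (log2 fold change 0.70, SE 0.27, adjusted p = 0.179) overlapped as well. Gls2 and Sds, and of the genes above Bckdha, Gcdh and Gstz1, overlap a protein-coding gene on the other strand at 1 end, so a part of their counts is uncertain.

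**Figure D2:**
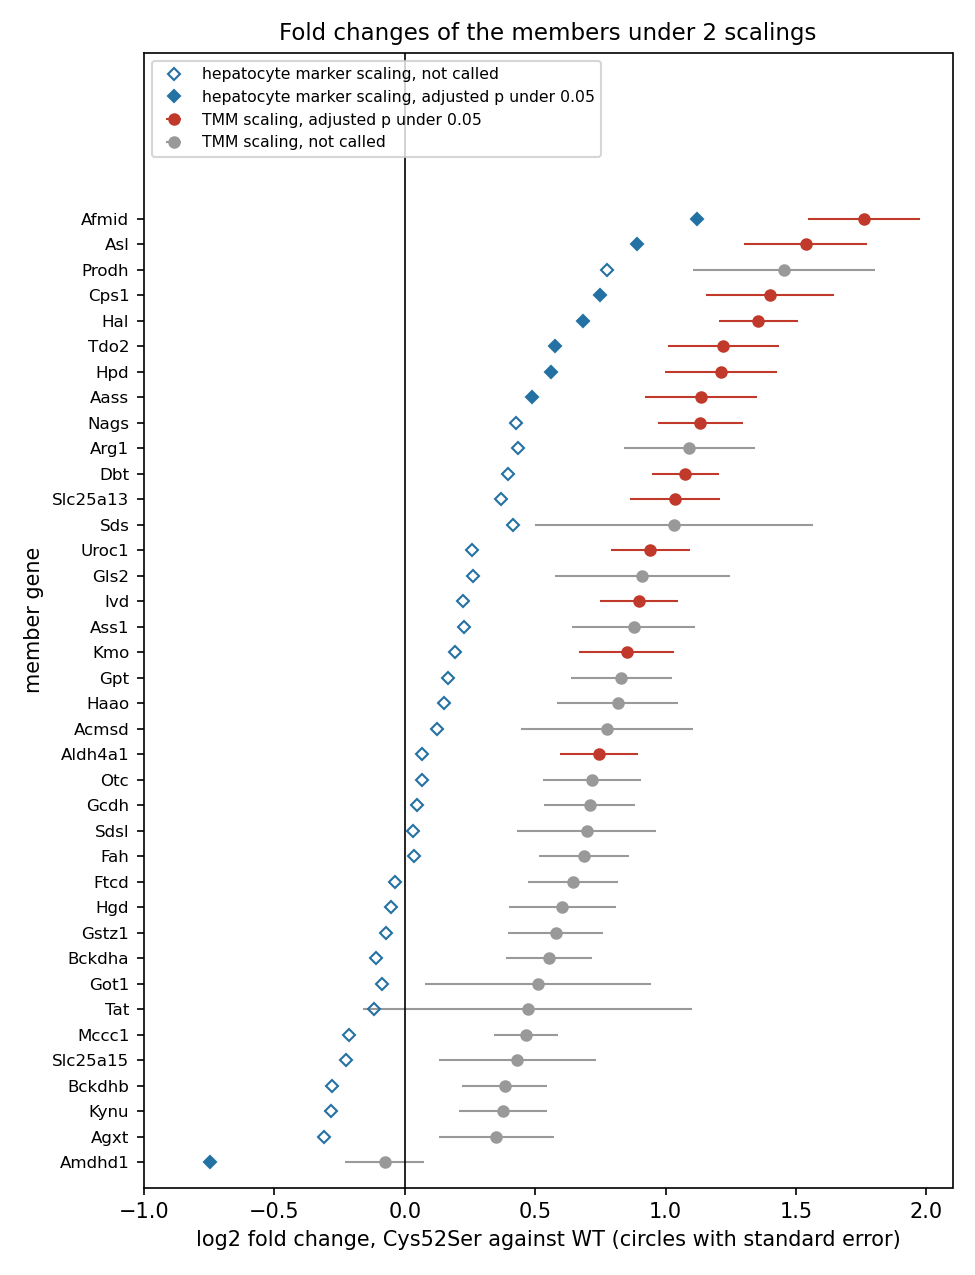
Circles give each gene's log2 fold change in Cys52Ser against WT with TMM scaling (bars, standard error; red, adjusted p under 0.05) and diamonds the same with libraries scaled to 12 hepatocyte markers (filled, adjusted p under 0.05). All circles but Amdhd1 lie right of 0, and on the hepatocyte scale 26 diamonds lie right of 0, with 7 filled there and Amdhd1 filled on the left.

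A comparison of neighbouring steps does not depend on how libraries are scaled, since the counts of 2 genes are divided within 1 library. The 21 ratios were of genes next to each other in the order of a pathway among the 38, or of subunits, and for Gcdh and Aass other enzymes act between them. Of these ratios, 5 were higher in every Cys52Ser liver, 10 were lower in every Cys52Ser liver and 6 overlapped. Over all 703 pairs of the 38 genes, 42.4% had groups apart in 1 direction or the other. An exact two-sided permutation test of 3 against 3 livers cannot go below p = 0.1, so no single ratio can pass a threshold of 0.05.

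The ratio of Asl to Ass1 counts was 0.152, 0.154 and 0.159 in WT and 0.251, 0.243 and 0.244 in Cys52Ser. It was 1.58-fold higher and nearly the same in all livers of a group, WT replicate 1 included. Arg1 to Asl went from 2.83, 3.03 and 2.72 to 2.20, 1.98 and 2.12, without overlap. Amdhd1 to Uroc1 was 0.543, 0.589 and 0.633 in WT and 0.275, 0.302 and 0.297 in Cys52Ser livers. Hal to Amdhd1, a pair picked after its values were seen, was 0.888, 0.893 and 0.858 in WT and 2.57, 2.37 and 2.21 in Cys52Ser, 2.71-fold higher. The groups lay apart in both ratios, given as a description with no test. Hgd to Hpd counts were 0.455, 0.534 and 0.418 in WT and 0.298, 0.312 and 0.309 in Cys52Ser. Kmo to Afmid was 9.39, 8.21 and 7.83 in WT and 4.05, 4.50 and 4.85 in Cys52Ser. Both ratios were lower in every Cys52Ser liver. Dbt to Bckdha, subunits of 1 complex, went from 0.271, 0.266 and 0.218 to 0.397, 0.356 and 0.326, also without overlap. Aldh4a1 to Prodh was 2.57, 6.46 and 2.62 in WT and 1.901, 2.009 and 2.017 in Cys52Ser, and here the high mean of WT came from WT replicate 2.

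**Figure D3:**
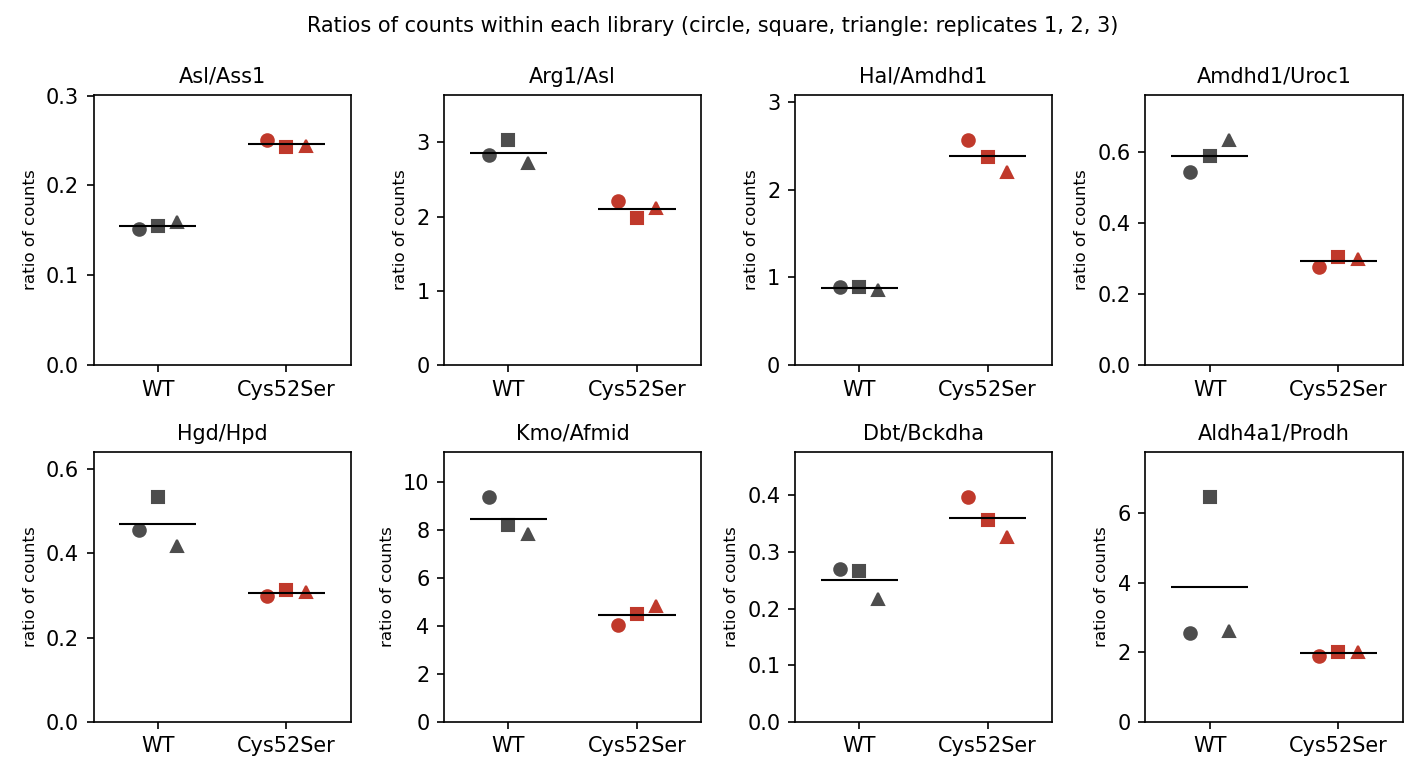
Each panel plots the ratio of counts of 2 genes within each library, with WT grey, Cys52Ser red, a line for the group mean and symbols for replicates 1, 2 and 3. The groups lie apart in all 8 panels, which were chosen for display after the ratios were seen, and the Asl to Ass1 values sit close together within each group.

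Levels of different genes were set side by side as deposited FPKM, which corrects for transcript length. Averaged over the 6 livers, Tat was highest at 654 FPKM, followed by Ass1 at 594, Hpd at 432, Cps1 at 409.9, Arg1 at 314 and Tdo2 at 291 FPKM. Within WT Tat averaged 619 FPKM and Ass1 485, and within Cys52Ser Ass1 was the higher, at 702 FPKM against 688 for Tat, with overlapping ranges in both groups. The lowest were Acmsd at 6.77, Sdsl at 6.25 and Mccc1 at 3.15 FPKM. Of 37 neighbouring pairs in this order, 35 had overlapping ranges over the 6 livers. The exceptions were Tdo2 above Fah, which stood at 146 FPKM, and Sdsl above Mccc1, so the order of most neighbours is not settled by these libraries. Together the 38 genes made up 0.938%, 1.44% and 1.35% of all counts in WT and 1.76%, 1.84% and 2.01% in Cys52Ser livers.

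**Figure D4:**
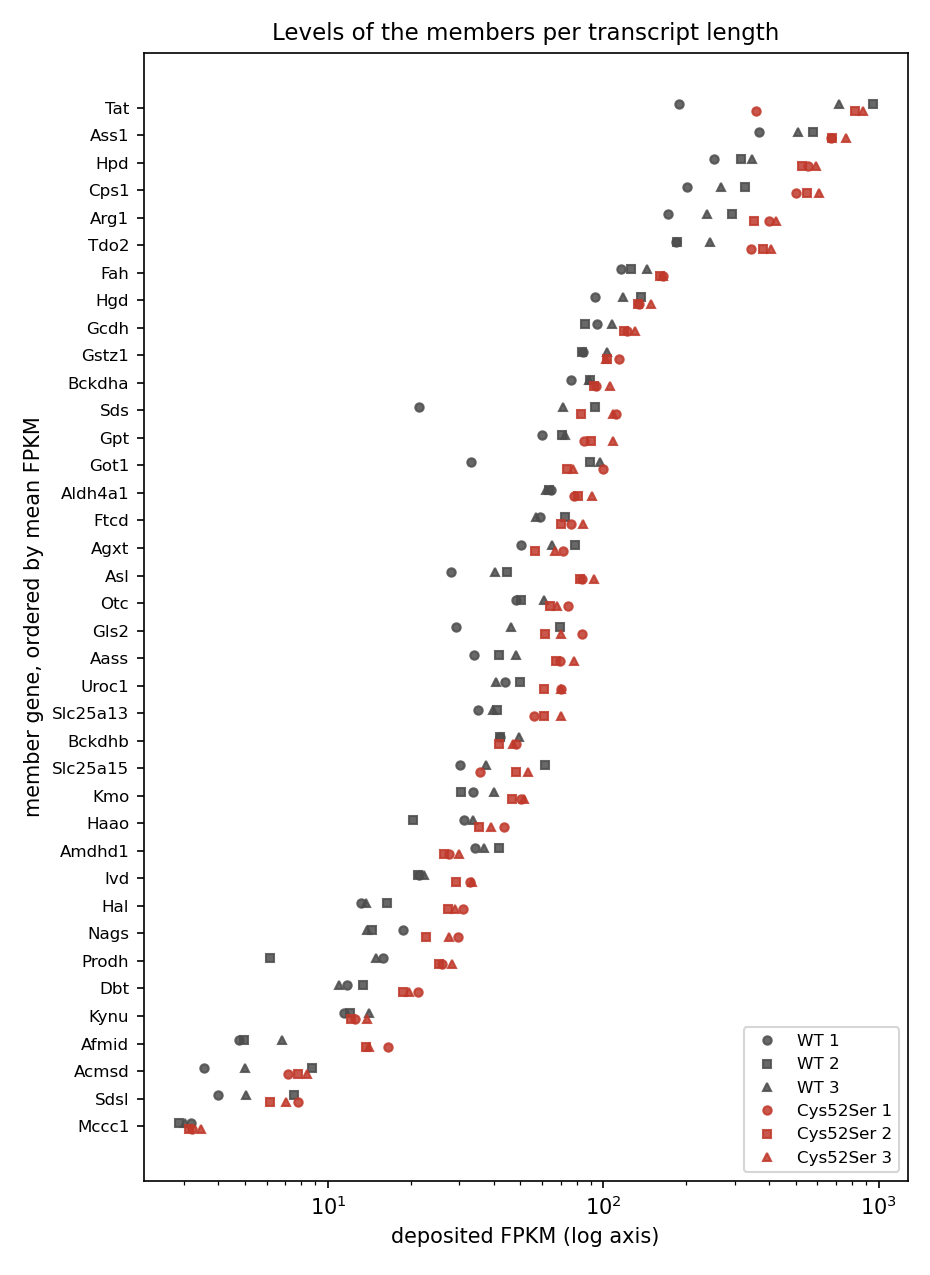
Deposited FPKM of each gene in each liver on a log axis, with genes ordered by their mean, WT in grey and Cys52Ser in red (circle, square and triangle for replicates 1, 2 and 3). Levels span from about 3.15 FPKM for Mccc1 to 654 FPKM for Tat, and WT replicate 1 lies far left for Tat, Sds and Got1.

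Livers of 1 group differed among themselves, and more so in WT. WT replicate 1 was the lowest WT liver for 32 of the 38 genes and WT replicate 2 for 6. Within Cys52Ser, replicate 2 was lowest for 35 genes and replicate 3 highest for 27. The median coefficient of variation was 22.1% in WT and 14.2% in Cys52Ser, compared with 13.5% and 12.3% over the 1511 tested genes of 100 CPM or more, and it was larger in WT for 29 genes. A more than 2-fold range among WT livers was seen for 8 genes: 5.39-fold for Tat, 4.67-fold for Sds, 3.48-fold for Got1, 2.65-fold for Prodh and for Acmsd, 2.55-fold for Gls2, 2.17-fold for Slc25a15 and 2.01-fold for Sdsl. None of these 8 was called by edgeR with all libraries and TMM scaling. DESeq2 called Prodh (adjusted p = 1.95e-05) and Gls2 (adjusted p = 0.0135) higher, and with the replicate block edgeR called Prodh (adjusted p = 0.0475). In 7 of them WT replicate 1 was the lowest liver of its group, and in Prodh it was WT replicate 2. Periportal hepatocyte markers, a list of 6 genes that includes Pck1 and Cyp2f2, summed to 1261, 3351 and 3604 CPM in WT and 2953, 4213 and 5554 CPM in Cys52Ser, lowest in WT replicate 1. Of these 6 genes, 4 had a fitted change above 0 and 2 below, 1 was called higher and 5 had overlapping groups. Pericentral markers, 9 genes such as Cyp2e1 and Glul, summed to 6407, 3361 and 7767 CPM in WT and 10910, 10820 and 13540 CPM in Cys52Ser, lowest in WT replicate 2. Of these 9 genes, 8 had a fitted change above 0 and 1 below, 0 were called and 4 had overlapping groups. The part of both marker lists in the spread of the 38 genes was not tested.

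**Figure D5:**
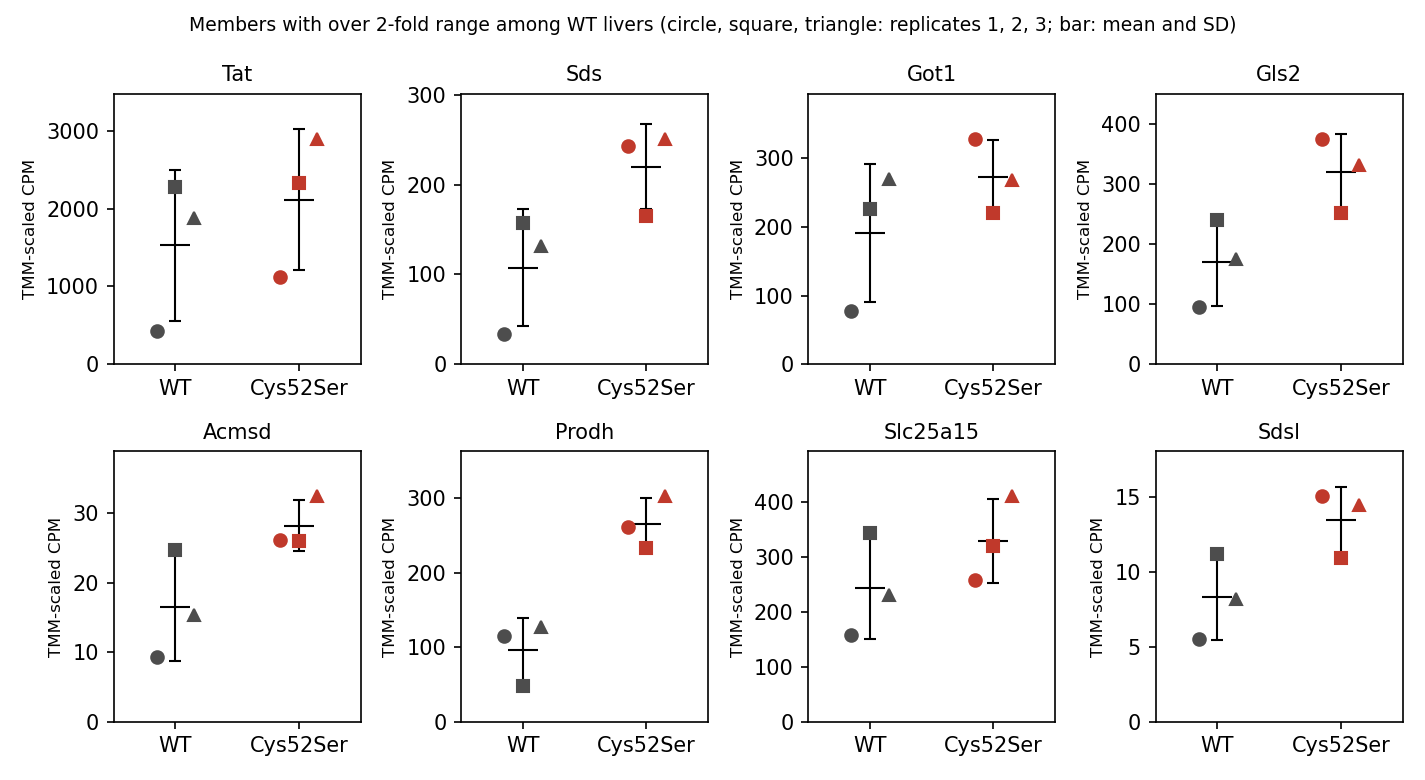
TMM-scaled CPM of the 8 genes with a more than 2-fold range among WT livers, with 1 point per liver (circle, square and triangle for replicates 1, 2 and 3) and the group mean with SD. WT replicate 1 is the lowest WT point in every panel but Prodh, where WT replicate 2 is lowest at 47.9 CPM.

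Other genes of amino acid breakdown, ammonia handling and amino acid transport had a smaller median change. Of 74 such genes 72 were tested, 12 rose and 1 fell, with a median log2 fold change of 0.45. Over all 18648 tested genes 2.52% were called higher and 2.46% lower. Without WT replicate 1, 1 rose and 1 fell, without Cys52Ser replicate 2, 4 rose and 2 fell, and edgeR called none in the fits that left out Cys52Ser replicate 1, Cys52Ser replicate 3 or WT replicate 2, where 32, 29 and 32 were higher and 1, 2 and 2 lower at an unadjusted p under 0.05. With hepatocyte markers as the scale 1 was called higher and 9 lower, with library totals 8 and 2, and DESeq2 called 32 and 1. Of all 28601 genes DESeq2 called 1294 higher and 1181 lower. Sardh, which oxidises sarcosine, rose 2.25-fold (log2 fold change 1.17, SE 0.16, adjusted p = 0.0198), and Gldc, the decarboxylase of the glycine cleavage system, 2.52-fold (log2 fold change 1.33, SE 0.23, adjusted p = 0.0302). Car5a, the mitochondrial carbonic anhydrase that supplies bicarbonate to Cps1, stood at 28.0, 15.9 and 32.5 CPM in WT and 71.7, 55.7 and 73.6 CPM in Cys52Ser and rose 2.63-fold (log2 fold change 1.40, SE 0.27, adjusted p = 0.0388). Its groups did not overlap. The other called genes among the 10 smallest p-values that rose were Maob at 1.91-fold, Shmt1 at 1.78-fold, Hsd17b10 at 1.60-fold, Mmut at 1.64-fold, Dhtkd1 at 2.03-fold and Aldh6a1 at 1.60-fold (edgeR adjusted p from 0.0242 to 0.0464). Csad, which makes hypotaurine on the way from cysteine to taurine, fell. It stood at 104, 116 and 140.0 CPM in WT and 60.2, 58.4 and 67.9 CPM in Cys52Ser, 1.93-fold lower in Cys52Ser (log2 fold change -0.95, SE 0.14, adjusted p = 0.0207), with no overlap. Glul, the glutamine synthetase of pericentral hepatocytes that takes up remaining ammonia, stood at 1105, 478 and 1123 CPM in WT and 1476, 1663 and 2139 CPM in Cys52Ser and was not called (log2 fold change 0.96, SE 0.34, adjusted p = 0.148). Glud1, glutamate dehydrogenase, was at 996 ± 91.3 CPM over WT livers and 1233 ± 259.5 CPM over Cys52Ser livers (SD, n = 3 each), with overlapping groups (log2 fold change 0.31, SE 0.19, adjusted p = 0.397).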

How the data were processed

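Liver RNA-seq of 3 WT and 3 Cys52Ser mice was deposited as 1 table that holds, per the file headers, estimated counts and FPKM for every gene in every library. Per the labels' protocols, libraries were made from poly(A) RNA with strand marking (dUTP) and molecular identifiers. The submitters' processing notes list HISAT2 2.0.4, StringTie 1.3.4d, UMI-tools, cutadapt 1.9, edgeR, DESeq2 and the build mm9, without roles. The table's positions are GRCm38, since 28524 of 28601 gene identifiers were found in GENCODE M21 and 25637 of these (89.9%) had identical positions. The deposited expected counts are whole numbers that follow transcript coverage: in each library, 89.9% to 92.4% of genes with 1 transcript and 1000 or more counts lay within 1% of FPKM times length times a constant. They needed no rounding. The authors' FPKM values correct for transcript length and library size.

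Groups came from the titles. The labels and design text describe separate mice, and no libraries agreed within sampling noise (chi-square per degree of freedom 86.9 or more). Counts of genes with enough reads (filterByExpr, minimum count 10; 18648 genes) were tested with edgeR 4.0.16 in R 4.3.3 (TMM factors, robust quasi-likelihood fit, genotype as the only term), and the Benjamini-Hochberg adjustment covered all tested genes, with a threshold of 0.05. The SE of a log2 fold change was taken from its F statistic (absolute log2 fold change over the root of F), and SDs are over mice. The common biological coefficient of variation was 0.358, so variation between mice and not counting limits the precision. The script was tested on simulated data. Alternatives were RLE, upper-quartile, library total and hepatocyte marker scaling, 2 other filters, DESeq2 1.42.0, limma 3.58.1 on log2(FPKM + 0.5) with pseudocounts 0.1 and 1 and with no filter, a replicate block and leaving out each library. A further limma fit on FPKM rescaled by TMM factors was chosen after seeing the data.

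The 38 genes, the marker lists, the pathway list and the naming rule were chosen with earlier results of these data known. Named genes were all called genes of the 38, the first or rate-limiting step of each pathway with full values, the rest with fold change and p, and of the wider list and the regulators every called gene up to the 10 smallest p-values. One gene that this rule takes is not reported here by name, though it stays in the counts. Promoters were not used for 9 genes: Gpt, Kynu, Arg1, Gls2, Sdsl, Cps1, Sds, Asl and Dbt. For 28 of the other 29, the bases after the start occur in a GENCODE transcript in the same orientation.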

Additional observations from a re-analysis of the deposited data

How the results depend on the processing

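The number of the 38 genes called higher was 14 to 18 with RLE, upper-quartile and library total scaling, with other count filters and with the replicate block, and 11 to 16 in limma on FPKM. It was 7 with hepatocyte marker scaling and 28 with DESeq2. By pathway, DESeq2 called 7 of 8 urea cycle, 3 of 4 histidine, 4 of 5 tyrosine and 4 of 6 tryptophan genes higher. It also called both lysine genes, both proline genes and 4 of 5 branched-chain genes higher. Leaving out 1 library gave 0 to 15 genes called higher and 0 called lower, and these fits have fewer samples. One gene, Amdhd1, was called lower, a count of 1 against 0, with library totals, with hepatocyte marker scaling and in limma with pseudocounts of 0.5, 0.1 and 1. The median log2 fold change of the 38 genes was 0.47 with library totals, 0.16 with hepatocyte marker scaling, 0.49, 0.51 and 0.48 in limma with pseudocounts of 0.5, 0.1 and 1, and 0.49 in limma without a filter. It was 0.61 to 0.93 over the fits without 1 library. On FPKM rescaled by TMM factors limma called 14 higher and 0 lower, so the lower medians of limma go with the library total scale of FPKM.

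Over all genes, 928 calls became 3017 with library totals, 6098 with hepatocyte marker scaling, 2475 with DESeq2, and 2967, 2947 and 2842 in limma with pseudocounts of 0.5, 0.1 and 1. Without 1 library there were 28 to 790. The share of calls that were higher was 50.5%, and 9.71% with library totals, 2.02% with hepatocyte marker scaling and 11.5% in limma with a pseudocount of 0.5. The 13 calls of the wider list became 33 with DESeq2, 4 in limma without a filter, 20 with the replicate block and 0 to 16 without 1 library. The cause of these differences was not tested.

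With hepatocyte marker scaling the fold change turned below 0 for Slc25a15 (-0.23), Ftcd (-0.037), Tat (-0.12), Hgd (-0.052), Gstz1 (-0.073), Kynu (-0.28), Bckdha (-0.11), Bckdhb (-0.28), Mccc1 (-0.22), Got1 (-0.089) and Agxt (-0.31). Over the fits without 1 library Tat ranged from -0.029 (without WT replicate 1) to 0.83 and Amdhd1 from -0.24 to 0.017 (without Cys52Ser replicate 2), and Agxt was at -0.0012 with library totals. None of these 12 genes was called by edgeR with TMM scaling and all libraries, while DESeq2 called Ftcd, Hgd, Gstz1, Bckdha and Mccc1 higher.

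The labels give both groups replicate numbers 1 to 3 and do not say that a number pairs mice. Deviations of same-numbered livers from their group means correlated at 0.01, 0.17 and 0.06 across genes. For livers of unlike number the correlations ran from -0.17 (WT replicate 2 with Cys52Ser replicate 1) to 0.16 (WT replicate 3 with Cys52Ser replicate 1). All are small and the 2 ranges overlap, so they cannot decide whether a number pairs mice. With the replicate block, 18 of the 38 genes were called higher and 0 lower, the median was 0.86, and 729 genes were called in all.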

Other observations

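Of 14 transcription factors and receptors known to act on amino acid breakdown in liver, 3 rose in Cys52Ser and none fell (edgeR, Benjamini-Hochberg adjusted p under 0.05). Over all 18648 tested genes 2.52% were called higher and 2.46% lower. At an unadjusted p under 0.05, 8 of the 14 were higher and 0 lower. DESeq2 called 8 higher and 0 lower, against 1294 higher and 1181 lower of all 28601 genes. Ppara, the fatty acid receptor of fasting, stood at 25.2, 17.8 and 31.3 CPM in WT and 77.3, 60.6 and 68.7 CPM in Cys52Ser and rose 2.78-fold (log2 fold change 1.47, SE 0.21, adjusted p = 0.0207). Hnf4a, a nuclear receptor that maintains hepatocyte genes, stood at 355, 311 and 379.8 CPM in WT and 766, 535 and 683 CPM in Cys52Ser and rose (log2 fold change 0.92, SE 0.17, adjusted p = 0.0355). In both genes every Cys52Ser liver lay above every WT liver. None of the 14 was called without WT replicate 1, WT replicate 2, Cys52Ser replicate 1 or Cys52Ser replicate 3, where 7, 8, 6 and 7 were higher and 1, 0, 0 and 0 lower at an unadjusted p under 0.05. With hepatocyte markers as the scale, Ppara was called higher and Gcgr and Atf4 lower.

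Among the others, Nr3c1, the glucocorticoid receptor, was at 63.4, 63.1 and 63.7 CPM in WT and 79.1, 77.0 and 82.6 CPM in Cys52Ser (log2 fold change 0.33, SE 0.09, adjusted p = 0.0766), with close replicates and groups apart, and its log2 fold change was -0.03 with library totals as the scale. Klf15, a factor that drives amino acid breakdown in fasting, was at 55.6, 149 and 206 CPM in WT and 121, 137 and 193 CPM in Cys52Ser (log2 fold change 0.14, SE 0.45, adjusted p = 0.903), with WT replicate 1 lowest and overlapping groups, and at -0.29 without WT replicate 1. Gcgr, the glucagon receptor, was at 223 ± 21.5 CPM over WT livers and 246 ± 31.5 CPM over Cys52Ser livers (SD, n = 3 each) (log2 fold change 0.14, SE 0.14, adjusted p = 0.628), with a log2 fold change of -0.21 with library totals as the scale. Atf4, which responds to lack of amino acids, was at 167 ± 36.6 CPM over WT livers and 132 ± 6.72 CPM over Cys52Ser livers (SD, n = 3 each) (log2 fold change -0.34, SE 0.17, adjusted p = 0.304) and was the 1 gene of the 14 with a fitted change below 0.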
